A study of Mus musculus with 6 samples.

Results

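Interferon-stimulated genes are genes whose transcription rises when a cell senses interferon. A list of 55 of them was written from general knowledge, with earlier results of these data known, and sorted into 10 role lists. It was looked up by gene symbol in RNA-seq values of mouse CD4+ T cells. The table held 53 of the 55, and all 53 passed the filter on low values. *Mx1* and *Mx2* were not analysed here. The table lists 14379 genes in all, of which 10173 were tested.

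Type I interferons signal through the receptor pair *Ifnar1* and *Ifnar2* and type II interferon, IFN-γ, through *Ifngr1* and *Ifngr2*. Both receptors switch on JAK kinases, which activate STAT proteins. Type I interferon acts mainly through a DNA element called the interferon-stimulated response element (ISRE), and IFN-γ mainly through the gamma-activated sequence (GAS). The genes so switched on encode proteins that sense viral RNA, block its translation, break it down or hold back viruses and vacuole-dwelling parasites. T cells respond to interferon themselves and, once activated, can also secrete IFN-γ.

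RNA was measured in 6 libraries of CD4+ T cells from lymph nodes and spleen of wild-type (WT) C57BL/6 mice, with no transgene or deletion in any group. The 3 naive libraries hold FACS-isolated naive cells at day 0, and the 3 activated libraries hold such cells at day 2 after stimulation with plate-bound anti-CD3 and soluble anti-CD28 under nonpolarizing conditions. The study describes the libraries of a group as biologically independent. The mice, male and female, were 7 to 10 weeks old. Cells cultured to day 2 without stimulation were not among the libraries, and effects of activation and of culture time cannot be told apart.

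The deposited values lie on a log2 scale in columns headed FPKM, a read number scaled by gene length and library size, and share a base value of 1.99, near which the lowest genes lie. Every level below is such a log2 value, and every log2 fold change is activated minus naive on that scale. The base value makes changes of genes near it smaller. The table holds no read counts, so that the depth of each library is unknown. Naive replicates 1 and 2 shared identical values (within 1e-09) at 352 genes and activated replicates 2 and 3 at 670 genes, none of them among the 53. Across the genes tested, naive replicates 1 and 2 differed with an SD of 0.16 on the log2 scale, while naive replicate 3 differed from them with SDs of 0.35 and 0.38. Activated replicates 2 and 3 differed with an SD of 0.11, and activated replicate 1 from them with SDs of 0.29 and 0.28. All 6 libraries were kept as separate samples. The label T-lymphocyte was checked against markers: *Cd3e*, a chain of the T cell receptor complex, lay between 6.40 and 9.02. The summed linear level of 12 myeloid markers above the base was 453, 659 and 566 in naive and 200 to 234 in activated libraries, with 0 of 9 tested called higher and 4 lower. The myeloid marker *S100a9* stood at 4.65, 7.13 and 1.99 in the naive libraries, the last of these being the base value, and at the base value in the activated libraries. Without it, a choice made after seeing the data, the naive sums were 432, 523 and 566, and those of the activated libraries did not move. For the 7 B cell markers the summed level was 7.50 to 37.0 in naive and 10.4 to 17.9 in activated libraries, with 0 of 5 tested called. Called higher and lower were 1 (*Nkg7*) and 4 of 7 markers of CD8 T and NK cells. They were 1 (*Il2ra*) and 3 of 6 of regulatory T cells, and 2 and 1 of 4 of plasmacytoid dendritic cells. Of all genes tested, 31.2% were called higher and 21.6% lower. Among 8 T cell markers 7 were called lower, and their summed level was 5315 to 5964 in naive and 1780 to 2037 in activated libraries.

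The ISRE core was found in promoters of members that moved in either direction on activation. Printed here are stretches of the promoter windows of RefSeq (build GRCm38.p6, from 250 bases before to 50 bases after the start site), 5′ to 3′ on the strand of the gene. Capitals mark the ISRE core, searched on both strands as GAAA, any 2 bases and GAAA, so that it reads TTTC, any 2 bases and TTTC where it lies on the other strand. The first 4 belong to genes that were lower in activated cells and the last 4 to genes that were higher. They were picked by hand among members with a match, so that they do not show how often the core occurs.
Ifit1: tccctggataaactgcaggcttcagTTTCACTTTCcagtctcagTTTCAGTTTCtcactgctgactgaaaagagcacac
Ifit3: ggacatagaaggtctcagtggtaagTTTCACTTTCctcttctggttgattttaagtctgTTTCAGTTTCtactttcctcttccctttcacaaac
Isg15: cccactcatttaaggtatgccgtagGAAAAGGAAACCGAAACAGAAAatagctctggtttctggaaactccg
Oas1a: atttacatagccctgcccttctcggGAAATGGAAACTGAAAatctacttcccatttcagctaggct
Igtp: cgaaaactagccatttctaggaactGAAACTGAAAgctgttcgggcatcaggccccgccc
Gbp2: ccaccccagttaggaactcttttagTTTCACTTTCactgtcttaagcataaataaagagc
Tgtp1: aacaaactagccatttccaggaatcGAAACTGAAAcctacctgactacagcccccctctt
Bst2: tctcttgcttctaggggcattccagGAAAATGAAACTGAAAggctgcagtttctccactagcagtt
Those of the lower genes were taken from *Ifit1* at chr19:34640760-34640838 (plus strand), *Ifit3* at chr19:34583348-34583441 (plus strand), *Isg15* at chr4:156200850-156200921 (minus strand) and *Oas1a* at chr5:120907505-120907570 (minus strand). Those of the higher genes were taken from *Igtp* at chr11:58199497-58199556 (plus strand), *Gbp2* at chr3:142620579-142620638 (plus strand), *Tgtp1* at chr11:48992289-48992348 (minus strand) and *Bst2* at chr8:71537562-71537627 (minus strand). Counted from the start site, the first matched base lay at -104 in *Ifit1*, -156 in *Ifit3*, -78 in *Isg15*, -20 in *Oas1a*, -34 in *Igtp*, -59 in *Gbp2*, -77 in *Tgtp1* and -130 in *Bst2*. *Isg15* had 3 overlapping matches, *Ifit1*, *Ifit3*, *Oas1a* and *Bst2* had 2 each, and *Igtp*, *Gbp2* and *Tgtp1* had 1 each.

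Of the 53 members, 43 had a RefSeq promoter window. The ISRE core was found in 23 of the 43 (53.5%) and in 3.99% of the 27025 genes with a window. By direction of change it was found in 12 of 28 members that were lower (42.9%), in 7 of 8 that were higher (87.5%) and in 4 of 7 that were not called (57.1%). GAS, searched as TTC, any 3 bases and GAA, which reads the same on both strands, was found in 12 of the 43 (27.9%) and in 9.55% of all genes with a window. It lay in 5 of the 28 lower, 4 of the 8 higher and 3 of the 7 members that were not called. Both motifs were searched separately, so that their matches may overlap. A match is a stretch of letters and not a measured binding site.

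Most interferon-stimulated genes were lower in activated than in naive CD4+ T cells, while the IFITM genes, some GTPases and *Bst2* were higher. Called lower were 35 of the 53 members, against 21.6% of all genes tested, and called higher were 9 of the 53, against 31.2% of all genes tested. The other 9 members were not called. A call needed a limma p, after Benjamini-Hochberg adjustment over all 10173 genes, under 0.05 together with a change of at least 1.5-fold, as the study used. The median log2 fold change was -1.67 over the members and 0.13 over all genes tested. In 36 members every activated library lay below every naive library, and in 11 every activated library lay above, as compared with 3348 and 4468 of the 10173 genes. In bulk RNA, fewer cells of a type and less RNA per cell cannot be told apart. As the values are scaled by library size, a smaller share of a cell's total RNA cannot be told apart from them either. The part of other cell types in these changes was not tested.

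The median level of the members was 5.75, 5.74 and 6.11 in naive replicates 1 to 3 and 4.05, 3.89 and 3.84 in activated replicates 1 to 3. Over all genes tested the median level stayed between 4.09 and 4.37 in the 6 libraries. Of the 35 lower members, 10 had an activated mean less than 1 linear unit above the base value, so that the size of their fall is limited by it. Scaling of the libraries moved the median log2 fold change of all genes by -0.13 (quantile normalization), -0.09 (median-of-ratios) and -0.16 (upper-quartile). Under upper-quartile scaling 2570 genes were called higher and 2729 lower, in place of 3175 and 2195, while 8 members were higher and 36 lower. None of the 44 members called changed direction under any of these scalings.

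**Figure D1:**
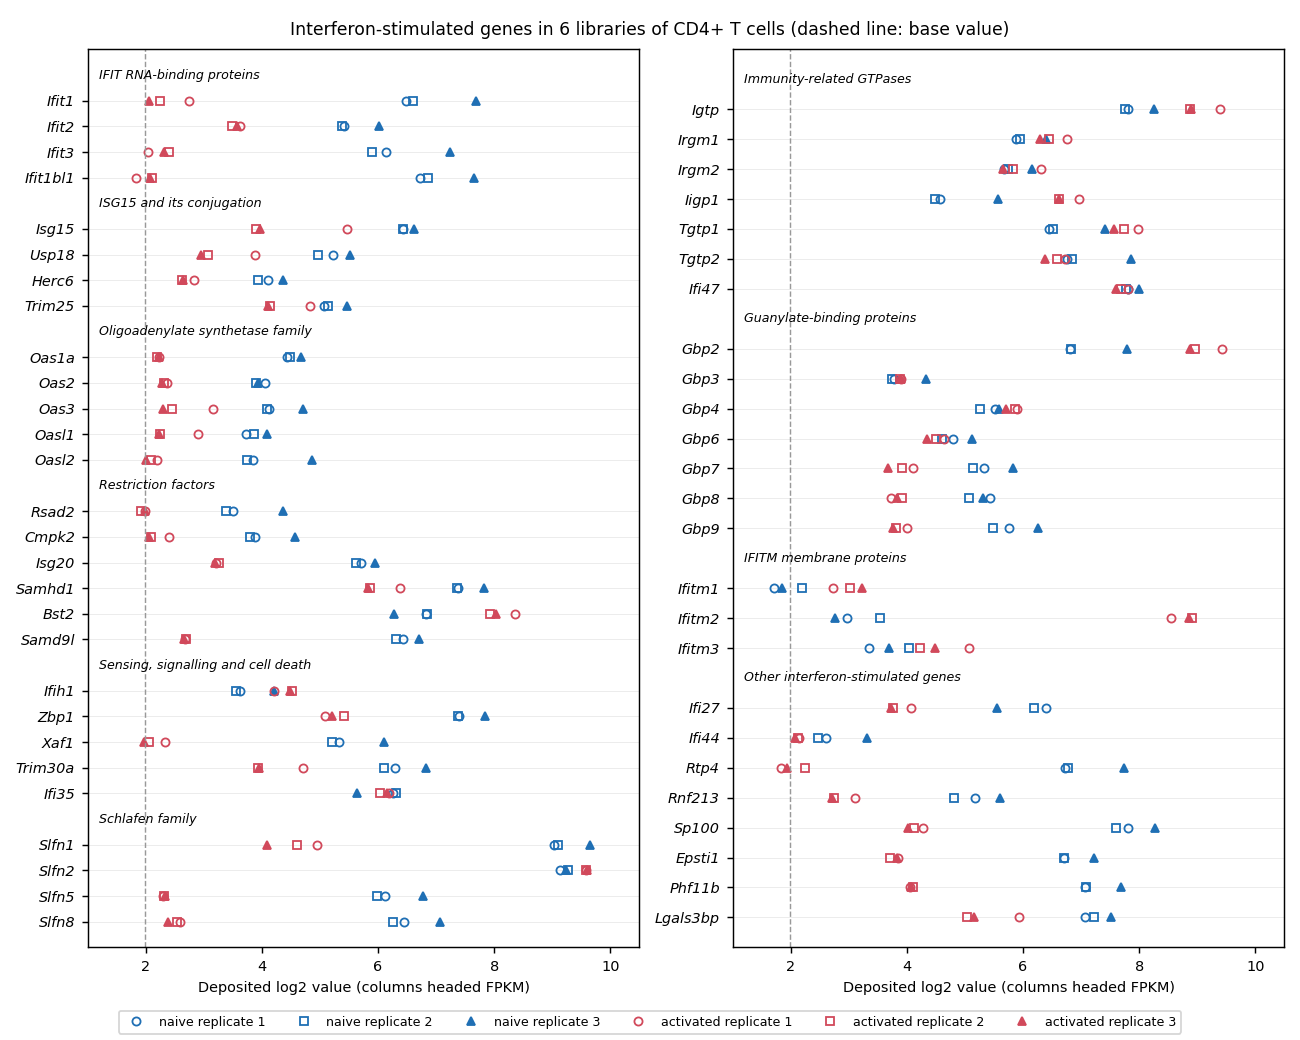
Deposited log2 value (x axis) of each of the 53 members in each library, by role list; blue symbols are the 3 naive and red symbols the 3 activated libraries, and the dashed line is the base value of 1.99. The IFIT genes lie between 5.38 and 7.69 in naive and between 1.84 and 3.62 in activated libraries, and *Ifitm2* lies the other way round.

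The IFIT genes, whose products bind viral RNA and block its translation, all fell, and by a median of 4.37 on the log2 scale. They lie together on chromosome 19 of GRCm38/mm10, from *Ifit2* at 34550694 to the end of *Ifit1* at 34650009. *Ifit1*, which binds viral RNA that lacks the methylated cap of the host, stood at 6.48, 6.60 and 7.69 in naive and at 2.75, 2.25 and 2.06 in activated replicates 1 to 3, and all later values are given in this order. *Ifit1bl1*, a relative of *Ifit1* on the opposite strand, stood at 6.73, 6.86 and 7.65 in naive and 1.84, 2.10 and 2.08 in activated libraries. *Ifit3*, whose human counterpart stabilizes IFIT1 in complexes, stood at 6.13, 5.90 and 7.24 in naive and 2.04, 2.41 and 2.32 in activated libraries. In each of these genes the activated libraries were near the base value and naive replicate 3 was the highest library. *Ifit1* fell by 4.57 (standard error, SE, of 0.31, limma adjusted p = 1.61e-06), *Ifit1bl1* by 5.07 (SE 0.23) and *Ifit3* by 4.17 (SE 0.31). The size of these falls depends on the processing. Over the alternatives it ran from -7.03 to -4.19 in *Ifit1*, -9.05 to -4.70 in *Ifit1bl1* and -6.81 to -3.65 in *Ifit3*. *Ifit2*, which binds AU-rich RNA, stood at 5.42, 5.38 and 6.02 in naive and 3.62, 3.48 and 3.56 in activated libraries and fell by 2.05 (SE 0.18). *Ifit2* thus kept a level above the base in activated cells, where the other IFIT genes lay close to it. *Ifit3* shares 51.2% of its transcript, in 50-base words, with *Ifit3b*, and the sum of both genes had a log2 fold change of -4.34.

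Genes of ISG15 and its conjugation fell in 4 of 4 cases, with a median log2 fold change of -1.69, and activated replicate 1 was the highest activated library in each. It was so in 39 of the 53 members and in 7122 of the 10173 genes tested, so that this is common to most genes. *Isg15*, on chromosome 4 from 156199424 to 156200818, encodes a ubiquitin-like protein that is linked to other proteins. It stood at 6.43, 6.44 and 6.61 in naive and 5.46, 3.89 and 3.97 in activated libraries. Activated replicate 1 exceeded the mean of activated replicates 2 and 3 by 1.53, so that the naive libraries were close together and the activated ones were not. *Isg15* fell by 2.05 (SE 0.36, limma adjusted p = 0.000653). *Usp18*, the protease that removes ISG15 and dampens the type I receptor, stood at 5.22, 4.96 and 5.52 in naive and 3.88, 3.07 and 2.94 in activated libraries and fell by 1.94 (SE 0.25). *Herc6*, the ligase that attaches ISG15 in mice, stood at 4.10, 3.93 and 4.36 in naive and 2.82, 2.62 and 2.64 in activated libraries and fell by 1.43 (SE 0.13). *Trim25*, a ubiquitin ligase of the RIG-I pathway, had the smallest change of the group, from 5.08, 5.14 and 5.47 in naive to 4.82, 4.15 and 4.10 in activated libraries, a fall by 0.87 (SE 0.21, limma adjusted p = 0.00402).

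Oligoadenylate synthetases make the messenger that switches on RNase L, which cuts viral and cellular RNA, and all 5 family members fell by a median of 1.67. *Oas1a*, *Oas2* and *Oas3* lie within 120730333 to 120907521 of chromosome 5. *Oas1a* stood at 4.43, 4.48 and 4.67 in naive and 2.23, 2.19 and 2.24 in activated libraries and fell by 2.31 (SE 0.10, limma adjusted p = 1.95e-07). *Oas2* stood at 4.05, 3.90 and 3.94 in naive and 2.36, 2.31 and 2.28 in activated libraries and fell by 1.65 (SE 0.09). *Oas1a* and *Oas2* had tight groups that did not overlap, and naive replicate 3 differed from the other naive libraries by only 0.21 and -0.03. *Oas3* stood at 4.11, 4.10 and 4.70 in naive and 3.15, 2.46 and 2.30 in activated libraries and fell by 1.67 (SE 0.24). *Oasl2*, of the synthetase-like genes, stood at 3.85, 3.75 and 4.86 in naive and 2.19, 2.10 and 2.01 in activated libraries and fell by 2.06 (SE 0.25). Naive replicate 3 was above both other naive libraries in *Oas3* and *Oasl2*, and activated replicate 1 was above both other activated libraries. *Oasl1*, known for holding back *Irf7* translation, fell by 1.44 (SE 0.18). *Oas1a* shares 57.6% of its transcript with *Oas1g*, and the sum of both had a log2 fold change of -2.26.

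Among restriction factors, which hold back virus growth within the cell, 5 of 6 fell and *Bst2* rose. *Samd9l* stood at 6.43, 6.31 and 6.70 in naive and 2.67, 2.69 and 2.65 in activated libraries and fell by 3.81 (SE 0.14, limma adjusted p = 7.07e-08). *Isg20*, an exonuclease for RNA, stood at 5.71, 5.61 and 5.94 in naive and 3.21, 3.26 and 3.19 in activated libraries and fell by 2.54 (SE 0.13). Both had activated libraries that differed from each other by far less than from the naive ones. *Cmpk2*, a mitochondrial nucleotide kinase, and *Rsad2*, which encodes viperin, are neighbours on chromosome 12 within 26442746 to 26479837. *Cmpk2* stood at 3.88, 3.79 and 4.56 in naive and 2.41, 2.08 and 2.06 in activated libraries and fell by 1.90 (SE 0.20). *Rsad2* stood at 3.50, 3.38 and 4.36 in naive and 1.98, 1.92 and 1.98 in activated libraries. As its activated values all lay at or below the base, *Rsad2* was called lower (limma adjusted p = 6.53e-05) with no fold given. *Samhd1*, which breaks down deoxynucleotides, fell by 1.49 (SE 0.19). *Bst2*, on chromosome 8 from 71534255 to 71537456, encodes tetherin, which holds budding virus at the cell surface. *Bst2* stood at 6.82, 6.85 and 6.28 in naive and 8.35, 7.93 and 8.03 in activated libraries, a log2 fold change of 1.45 (SE 0.19, limma adjusted p = 9.22e-05). Naive replicate 3 was the lowest library for *Bst2*, whereas it was the highest for *Samd9l*, *Isg20*, *Cmpk2*, *Rsad2* and *Samhd1*. *Bst2* is also 1 of 7 listed markers of plasmacytoid dendritic cells, whose summed linear level above the base was 120, 127 and 86.5 in naive and 741, 540 and 574 in activated libraries. Nearly all of the activated sum came from *Bst2* itself and *Irf8*, with mean levels of 273 and 342 above the base. In naive libraries these means were 98.1 and 4.88. Of the 4 tested, *Bst2* and *Irf8* were called higher, *Ccr9* was called lower and *Siglech* was not called. *Tcf4*, *Klk1* and *Cox6a2* were not tested and lay between 2.10 and 2.46, near the base value. *Irf8*, a transcription factor of these cells, stood at 2.94, 3.36 and 3.10 in naive and 8.71, 8.23 and 8.31 in activated libraries. *Siglech*, a surface receptor of these cells, lay between 2.23 and 2.60, near the base value. The part of such cells in the rise of *Bst2* was not tested.

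Sensors, signalling and cell death genes moved in both directions, with 3 of 5 lower and *Ifih1* higher. *Xaf1*, which promotes apoptosis, stood at 5.33, 5.21 and 6.11 in naive and 2.34, 2.05 and 1.97 in activated libraries and fell by 3.43 (SE 0.23, limma adjusted p = 1.39e-06). *Zbp1*, the sensor of Z-form nucleic acids that starts necroptosis, stood at 7.39, 7.38 and 7.84 in naive and 5.09, 5.41 and 5.21 in activated libraries and fell by 2.30 (SE 0.16). *Xaf1* came close to the base value and *Zbp1* did not. *Trim30a*, a restrainer of NF-κB signalling, stood at 6.29, 6.09 and 6.83 in naive and 4.70, 3.93 and 3.94 in activated libraries and fell by 2.21 (SE 0.25). *Ifih1*, which encodes MDA5, a sensor of long double-stranded RNA, stood at 3.63, 3.55 and 4.20 in naive and 4.21, 4.52 and 4.49 in activated libraries. Its groups nearly met, at 4.20 and 4.21, and its log2 fold change was 0.61 (SE 0.18, limma adjusted p = 0.0139), just past the 1.5-fold threshold of 0.58. The call of *Ifih1* was lost in 10 of 20 alternatives, among them quantile normalization (0.58), upper-quartile scaling (0.44) and the fits without naive replicate 1 (0.53) or 2 (0.49) or without activated replicate 2 (0.56) or 3 (0.57). *Ifi35* was not called at 0.07 (limma adjusted p = 0.755), and its sign turned under all 3 scalings and without naive replicate 3.

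The Schlafen genes, a family tied to growth control of lymphocytes, included both a deep fall and a gene that stayed high. They lie within 82951349 to 83122670 of chromosome 11. *Slfn1* was among the highest members in naive cells at 9.03, 9.10 and 9.64 and stood at 4.94, 4.60 and 4.09 in activated cells, a fall by 4.71 (SE 0.24, limma adjusted p = 3.29e-07). *Slfn8* stood at 6.45, 6.26 and 7.07 in naive and 2.59, 2.54 and 2.39 in activated libraries and fell by 4.09 (SE 0.20). *Slfn5* stood at 6.12, 5.97 and 6.78 in naive and 2.29, 2.31 and 2.32 in activated libraries and fell by 3.98 (SE 0.20). All 3 had naive replicate 3 as their highest library. Summed with *Slfn9*, with which it shares sequence, *Slfn8* had a log2 fold change of -3.15. *Slfn2*, known in mice for keeping resting T cells quiescent, stood at 9.13, 9.27 and 9.24 in naive and 9.58, 9.58 and 9.60 in activated libraries. The groups of *Slfn2* did not overlap, but its log2 fold change of 0.37 (limma adjusted p = 0.018) was under 1.5-fold.

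**Figure D2:**
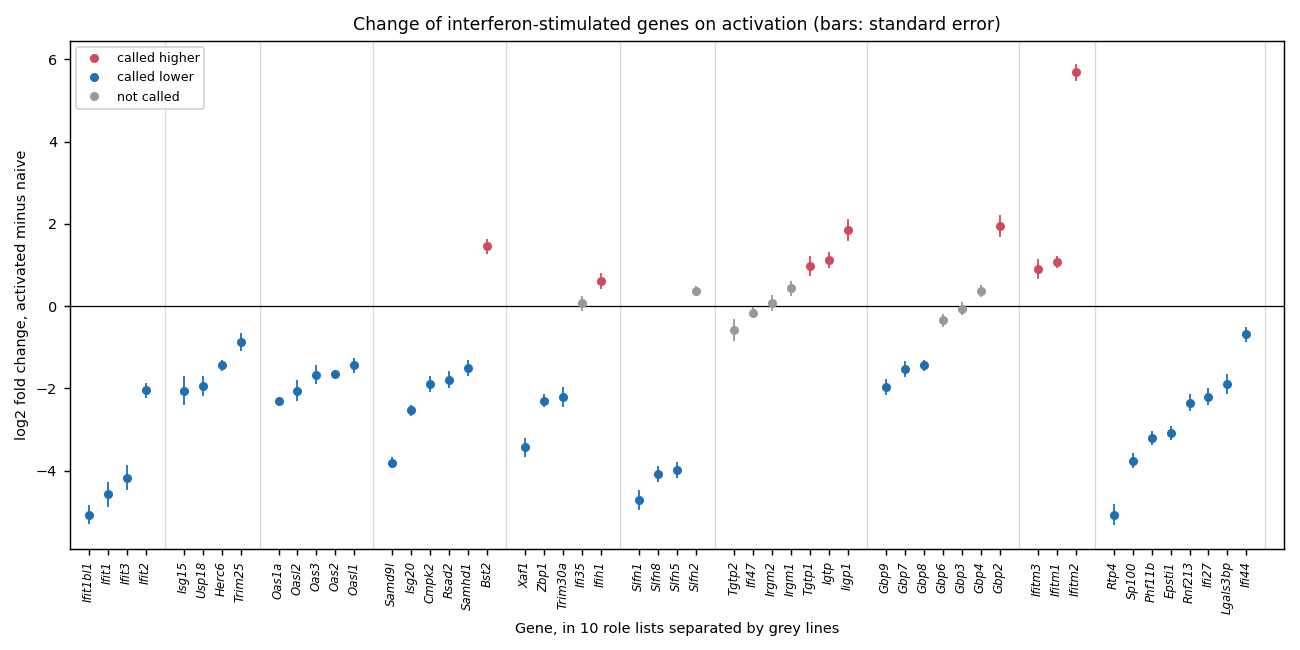
Log2 fold change, activated minus naive (y axis), with its standard error (bars) for each of the 53 members, in 10 role lists separated by grey lines and ordered by change within each; red is called higher, blue called lower and grey not called. The IFIT, ISG15 and oligoadenylate synthetase lists lie wholly below 0, the IFITM list wholly above, and both GTPase lists reach across or up from 0.

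Immunity-related GTPases, which act on the vacuoles of parasites such as *Toxoplasma*, included 0 lower genes: 3 of 7 rose, 4 were not called and the median log2 fold change was 0.43. *Irgm1*, *Tgtp1*, *Tgtp2* and *Ifi47* lie within 48861968 to 49096974 of chromosome 11, and *Igtp* and *Irgm2* overlap within 58199556 to 58222782 of the same chromosome. *Iigp1*, an effector GTPase that coats the vacuole, stood at 4.58, 4.48 and 5.57 in naive and 6.96, 6.62 and 6.61 in activated libraries, a log2 fold change of 1.86 (SE 0.27, limma adjusted p = 0.000186). *Igtp*, a regulatory GTPase, stood at 7.80, 7.75 and 8.26 in naive and 9.38, 8.87 and 8.90 in activated libraries, a log2 fold change of 1.11 (SE 0.19, limma adjusted p = 6e-04). In both genes naive replicate 3 was the highest naive library and still lay below all activated libraries. *Tgtp1*, another effector, stood at 6.44, 6.51 and 7.41 in naive and 7.98, 7.73 and 7.56 in activated libraries, a log2 fold change of 0.97 (SE 0.25, limma adjusted p = 0.00595). Its copy *Tgtp2* stood at 6.76, 6.85 and 7.85 in naive and 6.72, 6.59 and 6.39 in activated libraries, a log2 fold change of -0.59 (limma adjusted p = 0.0708), and was not called. *Tgtp1* and *Tgtp2* thus had opposite signs, but 89.4% of the *Tgtp1* transcript is also found in *Tgtp2*, so that the split of reads between them is uncertain. Summed over both, the values were 7.58, 7.66 and 8.63 in naive and 8.47, 8.25 and 8.07 in activated libraries, and the groups of these sums overlapped. *Tgtp2* was called lower without naive replicate 1 (-0.78) and under each of the 3 scalings (-0.71 to -1.0). *Irgm1* was not called at 0.43 but was called higher without naive replicate 3 (0.59), and *Irgm2* and *Ifi47* were not called at 0.07 and -0.16. The sign of *Irgm2* turned under the 3 scalings and without naive replicate 1 or activated replicate 1, and *Igtp* and *Irgm2* share annotated exon bases, so that reads there cannot be told apart.

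Guanylate-binding proteins, GTPases that attack vacuoles and cytosolic bacteria, were divided: *Gbp2* rose, 3 fell and 3 were not called. *Gbp2*, on chromosome 3 from 142620602 to 142638008, stood at 6.81, 6.83 and 7.78 in naive and 9.43, 8.95 and 8.88 in activated libraries. All activated libraries of *Gbp2* were above all naive ones, with a log2 fold change of 1.95 (SE 0.27, limma adjusted p = 0.000136). *Gbp7*, which also lies on chromosome 3, from 142530342 to 142550149, went the other way. It stood at 5.32, 5.13 and 5.83 in naive and 4.10, 3.92 and 3.68 in activated libraries and fell by 1.53 (SE 0.19). *Gbp3*, between the pair from 142560026 to 142573209, was not called at -0.06, and its sign turned without naive replicate 3 (0.13). *Gbp9*, in the second cluster on chromosome 5, stood at 5.75, 5.48 and 6.25 in naive and 4.0, 3.82 and 3.76 in activated libraries and fell by 1.97 (SE 0.19). *Gbp8*, of the same cluster, stood at 5.43, 5.06 and 5.31 in naive and 3.73, 3.92 and 3.84 in activated libraries and fell by 1.44 (SE 0.14). *Gbp4* was not called at 0.37 and *Gbp6* at -0.35. *Gbp4*, *Gbp8* and *Gbp9* share annotated exon bases, and *Gbp6* shares 59.7% of its transcript with other genes, so that their reads may be split or shared.

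The IFITM genes, whose products sit in membranes and block the entry of enveloped viruses, rose in 3 of 3 cases. They lie within 140954837 to 141010770 of chromosome 7. *Ifitm2* stood at 2.97, 3.53 and 2.76 in naive and 8.55, 8.90 and 8.86 in activated libraries. It was low in all naive libraries and one of the highest members in activated ones, a log2 fold change of 5.69 (SE 0.20, limma adjusted p = 7.07e-08) or 51.5-fold on the deposited scale. *Ifitm3* stood at 3.35, 4.04 and 3.68 in naive and 5.07, 4.23 and 4.49 in activated libraries, a log2 fold change of 0.91 (SE 0.24, limma adjusted p = 0.00674). *Ifitm1* stood at 1.70, 2.20 and 1.85 in naive and 2.72, 3.01 and 3.23 in activated libraries. 2 of the naive values of *Ifitm1* lay below the base, so that no fold is given for its call (limma adjusted p = 0.000159). The naive replicate with the highest value was replicate 2 in all 3 IFITM genes, and naive replicate 3 was not raised (median difference -0.11 from the other naive libraries). *Ifitm2* shares 48.5% of its transcript with other annotated genes, of which *Gm45717* was not analysed here.

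The remaining 8 members all fell, by a median of 2.71. *Rtp4*, a chaperone of receptors in the secretory path, stood at 6.72, 6.78 and 7.74 in naive and 1.84, 2.24 and 1.94 in activated libraries and fell by 5.07 (SE 0.26, limma adjusted p = 3.51e-07). *Sp100*, a protein of PML nuclear bodies, stood at 7.80, 7.60 and 8.27 in naive and 4.27, 4.12 and 4.01 in activated libraries and fell by 3.75 (SE 0.18). *Rtp4* lay below the base value in activated replicates 1 and 3, so that the size of its fall depends on the processing (-9.33 to -4.66 over the alternatives). *Sp100* stayed above the base value. *Phf11b*, which encodes a PHD finger protein, stood at 7.07, 7.09 and 7.69 in naive and 4.05, 4.10 and 4.07 in activated libraries and fell by 3.21 (SE 0.18). *Epsti1* stood at 6.71, 6.71 and 7.22 in naive and 3.84, 3.71 and 3.84 in activated libraries and fell by 3.08 (SE 0.16). Naive replicate 3 was the highest library in these 4 genes. The giant ubiquitin ligase *Rnf213* fell by 2.34, the mitochondrial protein gene *Ifi27* by 2.20, and *Lgals3bp*, which encodes a secreted galectin-binding protein, by 1.89. *Ifi44* fell by 0.69, from 2.61, 2.48 and 3.32 in naive to 2.15, 2.12 and 2.07 in activated libraries, low in all 6 libraries. Without naive replicate 3 its call was lost, at -0.43. Summed with *Phf11a*, *Phf11b* had a log2 fold change of -3.07.

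Upstream of these genes, the receptors were lower in activated cells and the type II ligand was higher. *Ifng*, which encodes IFN-γ, stood at 3.36, 3.61 and 3.87 in naive and 7.49, 7.08 and 6.84 in activated libraries, a log2 fold change of 3.52 (SE 0.19, limma adjusted p = 5.25e-07). *Ifnk*, a type I interferon of the skin, was at the base value in all 6 libraries, and the other 5 ligands listed were not analysed here. All 4 receptor genes fell. *Ifngr1*, the ligand-binding chain for IFN-γ, stood at 6.72, 6.81 and 7.16 in naive and 4.56, 4.31 and 4.02 in activated libraries and fell by 2.60 (SE 0.18). *Ifngr2*, its signalling partner, stood at 6.04, 6.11 and 5.86 in naive and 5.07, 4.68 and 4.55 in activated libraries and fell by 1.24 (SE 0.16). The groups were apart in both chains, and the fall was larger in *Ifngr1*. *Ifnar2* stood at 5.44, 5.33 and 5.62 in naive and 4.55, 4.08 and 4.19 in activated libraries and fell by 1.19 (SE 0.16). *Ifnar1* stood at 5.41, 5.36 and 5.25 in naive and 4.84, 4.44 and 4.34 in activated libraries and fell by 0.80 (SE 0.15). Neither type I receptor chain had overlapping groups.

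Of 10 JAK kinases, STATs and IRFs, 6 fell, 2 rose and 2 were not called. Beside this and the counts that follow, 21.6% of all genes tested were called lower and 31.2% higher. *Irf7*, the master regulator of type I interferon genes, stood at 6.16, 6.19 and 6.43 in naive and 2.85, 2.66 and 2.50 in activated libraries and fell by 3.59 (SE 0.14). *Jak1*, the kinase that both receptors use, fell by 2.36, *Irf2*, which opposes *Irf1* at shared sites, by 1.96, and *Irf9*, a DNA-binding factor of the type I response, by 1.85. Named after their values were seen, *Stat2* fell by 1.09, *Jak2* had a log2 fold change of 1.37 and *Irf1*, an activator of IFN-γ targets, one of 0.71. *Jak1* and *Jak2* thus moved in opposite directions, as did *Irf1* and *Irf2*. Of 4 nucleic acid sensors and adaptors tested, *Dhx58* fell by 1.63, *Tlr7* fell by 1.38, and *Mavs* and *Myd88* were not called. Of 8 negative regulators, 2 rose, 3 fell and 3 were not called. *Socs1*, the inhibitor of JAK kinases, stood at 4.60, 4.96 and 3.59 in naive and 7.48, 7.14 and 7.09 in activated libraries, a log2 fold change of 2.86 (SE 0.30). *Pias1* fell by 1.34, *Irf2bp2* by 0.84, and *Socs3* by 0.94 with groups that overlapped.

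A further 29 interferon-stimulated genes outside the 53 were also tested. Of these, 18 fell, 5 rose and 6 were not called, with a median log2 fold change of -0.76. Of all genes tested, 21.6% were called lower and 31.2% higher. *Ms4a4b*, a membrane protein gene of T cells, fell by 5.34, the membrane-anchored *Ly6e* by 3.07, *Shisa5* by 2.76 and *Nmi* by 2.38. The 5 that rose, named after their values were seen, were *Ube2l6* at 1.90, *Cd274* at 1.63, *Ly6a* at 1.06, *Psmb8* at 0.99 and *Psmb9* at 0.73. *Cd274* encodes PD-L1 and *Psmb8* and *Psmb9* encode subunits of the immunoproteasome. *Ube2l6*, the conjugating enzyme for ISG15, was thus higher while *Isg15*, *Usp18* and *Herc6* were lower. *Trim25* fell by 0.87 and *Uba7*, also named after its values were seen, by 1.81.

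Within the naive group, naive replicate 3 had higher levels of most members than naive replicates 1 and 2. As this sets 1 library against 2, it has no replicate check and no test. The median log2 difference of naive replicate 3 from the mean of naive replicates 1 and 2 was 0.51 over the members and 0.01 over all genes tested. At least 1.5-fold higher in naive replicate 3 were 23 of the 53 members, against 1.84% of all genes tested, and at least 1.5-fold lower were 2, against 5.95%. Naive replicate 3 was above both other naive libraries in 44 of the 53 members (83.0%) and in 44.5% of all genes tested. Between naive replicates 1 and 2 the median difference over the members was 0.04, against 0.00 over all genes tested, and 1 of the 53 members was at least 1.5-fold apart, against 0.58% of all genes.

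The largest differences were in genes that fell and in genes that rose on activation alike. *Ifit3* was higher by 1.23 on the log2 scale in naive replicate 3, *Ifit1* by 1.15 and *Oasl2* by 1.07. The GTPase genes *Tgtp2*, *Iigp1*, *Gbp2* and *Tgtp1* were higher by 1.04, 1.04, 0.96 and 0.93, and *Rtp4* by 0.99. The median difference was 1.00 in the IFIT list, 0.65 in the Schlafen list, 0.57 in the guanylate-binding protein list, 0.48 in the immunity-related GTPase list and 0.29 in the oligoadenylate synthetase list. The 2 members lower in naive replicate 3 by at least 1.5-fold were *Ifi27* at -0.73 and *Ifi35* at -0.64, and *Bst2* and *Ifitm2* fell short of that threshold at -0.56 and -0.50. Upstream, *Ifng* differed by 0.38, *Irf7* by 0.26 and *Socs1* by -1.19. Without naive replicate 3, 10 members were called higher and 34 lower on activation.

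Naive replicate 3 also differed from the other naive libraries with the GC content of transcripts, taken from the longest transcript of each gene. Across 10170 genes, which are not independent replicates and share these libraries, Spearman's rho between the difference and GC content was -0.57. Across the 53 members it was -0.49. The median GC content was 46.3% over the members and 49.5% over all genes tested. By quartile of GC content of all genes, from low to high, the median difference was 0.64, 0.57, 0.18 and 0.28 in the members and 0.18, 0.11, -0.05 and -0.27 in the other genes, with 20, 16, 11 and 6 members. The members lay above the other genes in each quartile. When each library was centred within 20 bins of GC content, chosen after seeing the data, 16 members were at least 1.5-fold higher in naive replicate 3, against 1.28% of all genes, and the median difference was 0.47. Marker lists of other cells also differed within the naive group. The median difference of naive replicate 3 from the other naive libraries was 0.48 over the tested markers of CD8 T and NK cells, 0.34 over those of regulatory T cells and 0.14 over those of T cells. It was -0.01 over myeloid, -0.13 over B cell and -0.09 over plasmacytoid dendritic cell markers. The tested markers of CD8 T and NK cells were divided. *Cd8b1* differed by -0.06 and *Nkg7* by -0.30, and the others by 0.30 (*Klrd1*) to 0.53 (*Eomes*). *Cd8a*, not tested, differed by -0.64. GC content of the tested ones ran from 32.7% (*Klrk1*) to 53.9% (*Eomes*). In naive replicates 1, 2 and 3 the summed level was 141, 189 and 167 for CD8 T and NK cells and 163, 150 and 195 for regulatory T cells. It was 5340, 5315 and 5964 for T cells and 7.50, 37.0 and 13.8 for B cells. Naive replicate 3 had the highest sum for regulatory T cell and T cell markers, and for myeloid markers when *S100a9* was left out. The largest part of the myeloid sums came from *Ctss*, which stood at 8.16, 8.22 and 8.58 in the naive libraries. *Lyz2*, the myeloid lysozyme gene, stood at 4.19, 5.21 and 5.57. Apart from these and *Adgre1*, which lay near the base value, the myeloid markers were highest in naive replicate 2. Among them were *Tyrobp* (3.50, 4.28 and 3.56), *Fcer1g* (3.87, 4.55 and 4.34) and *Cst3* (6.76, 7.10 and 6.74). The part of other cell types in this difference was not tested.

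**Figure D3:**
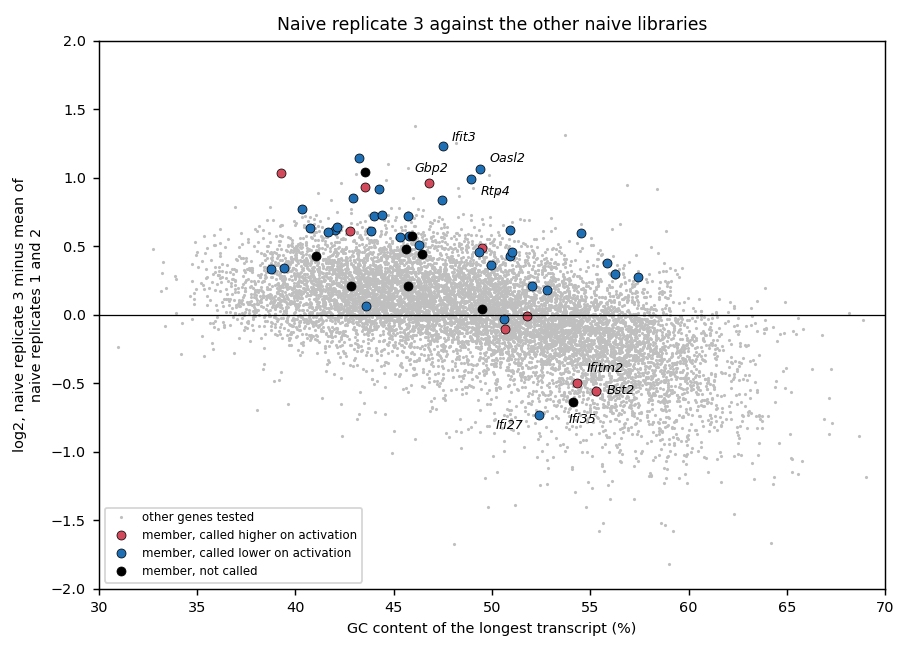
Log2 difference of naive replicate 3 from the mean of naive replicates 1 and 2 (y axis) against the GC content of the longest transcript in % (x axis); grey points are other genes tested, and coloured points are the 53 members by their call on activation. Grey points fall from left to right, and most members lie above them, with 3 genes beyond 2 on the y axis not drawn.

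Activated replicate 1 was above both other activated libraries in 39 of the 53 members and in 7122 of the 10173 genes tested. The median difference from the mean of activated replicates 2 and 3 was 0.21 over the members and 0.17 over all genes tested, and 10 of the 53 members were at least 1.5-fold higher, against 5.42% of all genes. At least 1.5-fold lower were 0 members, against 0.403% of all genes. *Isg15* had the largest of these differences at 1.53, and *Usp18* followed at 0.88. With naive replicate 3 and activated replicate 1 both left out, 9 members were called higher and 34 lower.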

How the data were processed

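PolyA RNA of 3 naive and 3 activated libraries of CD4+ T cells was sequenced. Per the study's methods and the submitters' processing notes, the authors used HISAT2 2.0.5 for alignment to mm10, StringTie 1.3.3b for assembly and featureCounts 1.5.0-p3 for counting reads per gene. The authors deposited log2 values of 14379 genes in columns headed FPKM, and the sheet name refers to ComBat, a batch correction. The scaling, the pseudocount and the batches are not given in the sources used. Since ComBat may reduce differences among replicates, p-values reflect the spread that remained. No read counts were used, so that depth and counting error are unknown.

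Groups were taken from the sample titles. Genes that exceeded the base value (linear 3.97) by 1 linear unit or more in at least 3 of 6 libraries entered a limma 3.58.1 fit (R 4.3.3, lmFit, eBayes with trend, two-sided, no covariate) of the deposited values, with Benjamini-Hochberg adjustment over the 10173 genes. The study used a count test, which these values do not allow. The script was tested on simulated data. Naive replicate 3 was compared with the mean of naive replicates 1 and 2 without a test.

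The 55 members and all lists were chosen with earlier results of these data known. Values of all libraries are given, in each role list, for the called genes without overlap between groups that changed most (up to 4, and up to 2 in the opposite direction), and for receptors and ligands. The 8 members with the largest difference in naive replicate 3, and up to 4 called genes of each pathway list, are also named, and some genes of these lists are not reported here. GENCODE M21 (GRCm38/mm10) gave gene positions, transcript GC content and shared sequence, and RefSeq (GRCm38.p6) the promoters. Python 3.11.15 with pandas 2.3.3, numpy 2.4.6 and matplotlib 3.10.9 prepared tables and figures. Alternatives were pseudocounts of 0.5 and 0.1, no filter and a filter of 5 units, 3 scalings, limma without trend, a replicate block, libraries left out or averaged, and a 2-fold or no fold threshold. Centring within 20 GC bins and summing near-identical copies were added after seeing the data.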

Additional observations from a re-analysis of the deposited data

How the results depend on the processing

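Of 1058 pairs of a member and an alternative, 1017 kept direction and side of the threshold, 17 lost the call, 11 gained one and 13 turned sign. Leaving out 1 library in turn gave 8 to 10 members higher, 34 to 36 lower and values between -1.79 and -1.48 for the median log2 fold change of the members tested. With a pseudocount of 0.5 this median was -2.28 and with 0.1 it was -2.42, on values above the base. Members higher and lower were 7 and 37 under quantile normalization, 8 and 36 under median-of-ratios scaling, and 6 and 33 at a 2-fold threshold. With the replicate block, 9 were higher and 36 lower, the latter with *Tgtp2*. The same-numbered libraries did not deviate together in the deposited values (correlations -0.01, -0.05 and -0.14). As a batch correction may have removed shared deviations, whether the numbers pair the samples is unknown. For naive replicate 3, 5 members were higher and 0 lower at a 2-fold threshold, and 1 was lower after GC centring, while the median difference stayed between 0.46 and 0.54. The cause of these changes was not tested.

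The sign turned only in 3 members that were not called. *Gbp3* went from -0.17 to 0.13 over the fits without 1 library and to 0.12 without naive replicate 3 and activated replicate 1. *Ifi35* was -0.28 under quantile normalization, -0.056 under median-of-ratios and -0.15 under upper-quartile scaling, -0.18 without naive replicate 3 and activated replicate 1, -0.19 after GC centring, and from -0.15 to 0.18 without 1 library. *Irgm2* was -0.23, -0.049 and -0.15 under these scalings and from -0.11 to 0.22 without 1 library. *Tgtp1* lost its call under quantile normalization (0.51).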
